A study of Mus musculus with 11 samples.

Results

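Gene expression with 10 reprogramming constructs was compared with a lacZ control in mouse embryonic fibroblasts (MEFs), and the genes that lay on the same side of lacZ with every construct are described here. The members were all 11 arrays of the series: 8 polycistronic cassettes, 2 constructs of Klf4 alone and 1 lacZ construct, each measured once. Of 19938 genes measured, 25 lay at least 2-fold above lacZ with all 10 constructs (0.125%) and 60 lay at least 2-fold below it with all 10 (0.301%). The 85 genes (0.426% in either direction) included Jag1, Eln, Krt8, Ceacam1 and Tek on the higher side, and Kcnmb1, Ankrd1, Oasl1, Cxcl10 and Hsd3b6 on the lower side.

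All 11 populations were male MEFs of 13.5 dpc F1 hybrid embryos with the genotype ROSA-rtTA; Nanog-GFP, from a female ROSA-rtTA homozygous C57Bl6 backcross parent and a male Nanog-GFP homozygous BAC transgenic parent of a C57Bl6/129SV hybrid intercross. The rtTA transactivator, expressed from the ROSA locus, switches on doxycycline-responsive transgenes, and Nanog-GFP reports a pluripotency gene. Each population received a PB-TAC piggyBac transposon, which a transposase inserts into the genome, together with the transposase plasmid pCyL43, by FugeneHD transfection. Embryonic stem cell medium with 1 ug/mL doxycycline followed after a day, so the lacZ cells shared the transposon system, the medium and the drug. The cassettes were WTSI, STEMCCA, EB-C5, OSKM, MKOS, OKN-HAMS, OKMS and OK+9MS, and the Klf4 constructs were Klf4S and Klf4L (Klf4+9 in its title). On day 6 the cells of these 10 constructs were collected by sorting for the coexpressed mCherry reporter. The lacZ population was taken unsorted on day 2. Day, sort and transgene therefore cannot be told apart in any difference from lacZ given here, and comparisons between cassettes and Klf4 alone are free of that limit.

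Reprogramming turns a somatic cell into a pluripotent one, and the usual factors are c-Myc, Klf4, Sox2 and Oct4, the product of Pou5f1. In fibroblasts the early phase is known for loss of mesenchymal and contractile genes and gain of epithelial genes. Klf4 is a zinc finger transcription factor that binds GC-rich CACC-type sites and is known for its role in epithelia.

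Values are log2 expression levels, where a difference of 1 is 2-fold. Levels under 6, a chosen limit, were taken as near background, so a difference that starts or ends there is treated as a lower bound in size. The array medians over all genes lay between 7.54 and 7.67, and the median gene differed from lacZ by -0.01. Of the 4 reprogramming factors, Pou5f1 alone set every cassette far from the other arrays: it read 11.89 to 13.22 with the 8 cassettes, against 6.06 with Klf4S, 5.84 with Klf4L and 6.09 in lacZ. Klf4 read 9.64 to 10.20 with the 10 constructs against 9.47 in lacZ (limma adjusted p = 0.594), and Myc read 9.05 with Klf4S, 8.65 with Klf4L and at least 9.86 with each cassette against 9.54. Sox2 read 7.76 with WTSI and 6.22 to 6.88 with the other cassettes, around a lacZ level of 6.79, and so did not mark the cassettes. Transgene and endogenous signal were not separated.

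All 10 constructs lay above lacZ for 1748 genes (8.77%) and below it for 2889 (14.5%) when no minimum size was set. The 10 differences of a gene share the lacZ array. A limma fit of the 10 constructs against lacZ, in which the spread between constructs is the error, called 96 genes (0.481%) at an adjusted p under 0.05, 11 higher (0.0552%) and 85 lower (0.426%). Without adjustment, 1765 genes had a p under 0.05. The higher calls numbered 7 without MKOS, 6 without Klf4S and 7 without Klf4L. A single lacZ array gives the fit no spread for that group. For any single gene, 1 lacZ array among 11 allows an exact one-sided permutation p of 0.0909 at the smallest. Both criteria were met by 37 genes, 7 higher and 30 lower, and the fit left out 18 of the 25 higher genes and 30 of the 60 lower ones. This fit counts the difference between cassettes and Klf4 alone as error. With the cassettes and Klf4 alone as separate groups and the mean of 10 against lacZ, limma called 52 genes higher and 206 lower, among them 16 of the 25 and 48 of the 60. The 2-fold threshold had close neighbours on both sides: Tmem229b (1.01) and Fgfbp1 (1.02) lay just inside at their array nearest to lacZ, with Efna3 (0.96) and Chl1 (0.95) just outside. On the lower side Ccl2 (-1.01) and Neurl3 (-1.03) lay just inside, and Fgf7 and Apbb1ip (both -0.97) just outside.

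The promoters of a few shared genes are printed because their groups are those the results return to. They are RefSeq promoters of GRCm38.p6, from 250 bases before to 50 after the start, written 5′ to 3′ along the gene's strand, with the matches of 1 motif per promoter in capitals. Cxcl10 and Rsad2 are interferon-induced and hold a match to the interferon-stimulated response element, searched as GAAA, any 2 bases and GAAA again, on the gene's own strand in Cxcl10 and on the other in Rsad2. Ankrd1, a target of the YAP and TEAD factors, holds the TEAD motif GGAATG. Ceacam1 and Dapk1, on the higher side, hold the CACC-type KLF motif GGGNGNGG, on the other strand in Ceacam1. Cxcl10 and Rsad2 also hold matches to the KLF motif and to the AP-1 motif below, which are left in lower case.
Cxcl10, chr5:92348840-92349139, minus strand: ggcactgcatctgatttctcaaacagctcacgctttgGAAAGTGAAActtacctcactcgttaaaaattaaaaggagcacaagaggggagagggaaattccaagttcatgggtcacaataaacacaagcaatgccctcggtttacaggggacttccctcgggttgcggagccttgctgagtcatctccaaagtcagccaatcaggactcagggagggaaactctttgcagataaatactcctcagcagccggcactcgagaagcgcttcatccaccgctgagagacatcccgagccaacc
Rsad2, chr12:26456403-26456702, minus strand: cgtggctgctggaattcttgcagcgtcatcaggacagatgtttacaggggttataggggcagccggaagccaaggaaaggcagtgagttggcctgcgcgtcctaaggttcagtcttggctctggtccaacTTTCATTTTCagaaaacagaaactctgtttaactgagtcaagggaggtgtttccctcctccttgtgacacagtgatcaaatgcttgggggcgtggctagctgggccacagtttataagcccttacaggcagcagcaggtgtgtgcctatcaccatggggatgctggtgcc
Ankrd1, chr19:36119795-36120094, minus strand: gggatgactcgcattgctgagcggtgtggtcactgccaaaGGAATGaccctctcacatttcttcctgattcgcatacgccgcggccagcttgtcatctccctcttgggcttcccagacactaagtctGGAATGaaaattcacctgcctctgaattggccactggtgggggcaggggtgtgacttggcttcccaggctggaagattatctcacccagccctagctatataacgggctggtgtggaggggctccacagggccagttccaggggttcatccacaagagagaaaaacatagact
Ceacam1, chr7:25477576-25477875, minus strand: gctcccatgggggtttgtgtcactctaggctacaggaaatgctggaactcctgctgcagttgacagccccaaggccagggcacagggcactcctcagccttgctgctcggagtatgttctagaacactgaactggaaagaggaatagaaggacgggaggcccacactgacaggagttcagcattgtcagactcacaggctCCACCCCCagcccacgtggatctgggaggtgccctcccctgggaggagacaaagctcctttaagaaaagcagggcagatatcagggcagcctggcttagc
Dapk1, chr13:60601961-60602260, plus strand: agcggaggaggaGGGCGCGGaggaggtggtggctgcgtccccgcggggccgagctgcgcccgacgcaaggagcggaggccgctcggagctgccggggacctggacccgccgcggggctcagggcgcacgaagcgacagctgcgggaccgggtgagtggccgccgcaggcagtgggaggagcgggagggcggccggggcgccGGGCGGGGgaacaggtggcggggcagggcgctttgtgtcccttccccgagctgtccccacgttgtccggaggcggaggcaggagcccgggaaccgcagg

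RefSeq promoters were at hand for 18 of the 25 higher and 44 of the 60 lower genes, and for 15614 of all genes. Each motif was searched on both strands and by itself, so a promoter could count for several. The interferon element stood in 6 of the 44 lower promoters (13.6%), in 0 of the 18 higher ones and in 3.32% of all. The 6 were Cxcl10, Rsad2, Slfn9, Sgk1, Kcnab1 and D17H6S56E-5. GGGNGNGG stood in 16 of 18 higher promoters (88.9%) and 29 of 44 lower ones (65.9%), against 59.3% of all. GGAATG stood in 4 of 44 lower (9.09%) and 1 of 18 higher promoters (5.56%), against 13.1% of all, and Ankrd1 held 2 copies. The AP-1 motif TGANTCA stood in 6 of 44 lower promoters (13.6%) and 0 of 18 higher ones, against 6.98% of all. The CArG box of serum response factor stood in 2 of 44 lower promoters (4.55%), against 1.42% of all. These counts describe letters in a window and were not tested.

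Several of the genes higher than lacZ with all 10 constructs differed little between constructs, among them matrix, membrane and Notch pathway genes. Egfl6, a secreted matrix protein with EGF repeats, read between 7.68 and 9.02 with the 10 constructs, against 5.63 in lacZ. EB-C5 was the highest, and every construct stood clear of lacZ, whose level was in the background range. Egfl6 rose by at least 2.48 ± 0.37 (SE of the limma fit, 10 arrays against 1, adjusted p = 0.0172). The membrane proteolipid Gpm6b read 10.55, 11.01 and 11.55 at the lowest, median and highest construct against 8.70. Every construct stood well above lacZ, with OKN-HAMS lowest and EB-C5 highest, and Gpm6b rose by 2.33 ± 0.27 (limma adjusted p = 0.00415).

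Jag1, a Notch ligand, read 9.66, 9.94 and 10.16 at the lowest, median and highest construct against 8.40 in lacZ. Klf4L and Klf4S were the lowest arrays, and the gene rose by 1.54 ± 0.17 (limma adjusted p = 0.00283). Abca1, which exports cellular cholesterol to apolipoproteins, read 9.11, 9.59 and 10.15 against 7.54, and rose by 2.09 ± 0.29 (limma adjusted p = 0.012). Dapk1, a calmodulin-dependent kinase linked to cell death, read 10.14, 10.26 and 10.53 against 9.10. Its 10 arrays were among the most even of the higher genes, cassettes and Klf4 alike, and it rose by 1.20 ± 0.13 (limma adjusted p = 0.00283).

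Elastin (Eln), the elastic fibre protein, read 8.46 at the lowest and 9.28 at the highest construct against 7.26, and Nrep read 10.43 to 11.49 against 9.15. Both passed the fit (limma adjusted p = 0.0445 and 0.0395), but the call held in 3 of 10 fits that each left out 1 construct for Eln and in 2 of 10 for Nrep. Egfl6, Gpm6b, Jag1, Abca1 and Dapk1 kept their calls in all 10 such fits. Smaller rises without a 2-fold step on every array were called for the laminin chain Lamc1 (0.67 ± 0.12), the cyclophilin Ppic (0.71 ± 0.12), the scaffold protein Tanc1 (0.48 ± 0.06) and Phf11c (0.42 ± 0.07), with limma adjusted p-values of 0.0395, 0.0339, 0.00732 and 0.0331. Of these 4, Tanc1 kept its call in every fit that left out a construct. Phf11c stood outside the naming rule and is given to complete the 4.

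Several higher genes with large differences were uneven across constructs, and limma called none of Ceacam1, Apela, Aldh3a1 and Tek (adjusted p = 0.266, 0.481, 0.48 and 0.146). Ceacam1, an epithelial cell adhesion molecule, read 7.53 with Klf4S, 7.81 with Klf4L and 9.85 to 11.50 with the cassettes, against 5.42 in lacZ. That lacZ level was in the background range, so the difference of Ceacam1 is treated as a lower bound in size. The cassettes and the Klf4 constructs did not overlap, and both lay above lacZ. Apela, a secreted ligand of the apelin receptor that is expressed in pluripotent cells, read 7.22 and 7.32 with Klf4S and Klf4L and 9.44 to 11.72 with the cassettes, against 6.05. WTSI was the lowest cassette, and still lay above both Klf4 constructs. Tek, the angiopoietin receptor, read 7.95 and 7.88 with Klf4S and Klf4L and 9.05 to 10.03 with the cassettes, against 6.24. The aldehyde dehydrogenase Aldh3a1, abundant in corneal epithelium, read 8.24 and 7.99 with the Klf4 constructs and 8.85 to 12.46 with the cassettes, against 6.20 in lacZ.

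Krt8, Itgb4, Epb41l4b and Prss35 varied widely among the cassettes. Krt8, a keratin of simple epithelia, read 8.02 in lacZ, 10.97 and 11.23 with Klf4S and Klf4L, and 9.18 with STEMCCA, 9.24 with WTSI and 9.35 with EB-C5. The other 5 cassettes reached 11.61 to 13.43, so the Klf4 arrays stood between these sets of cassettes. Krt8 was the only 1 of 6 simple epithelial keratins above lacZ with all 10 (8.77% of all genes). The median of that list ran by array from -0.50 with STEMCCA to 1.09 with OKN-HAMS. It lay below lacZ with EB-C5, OKMS and WTSI too, and was 0.04 with Klf4S and 0.06 with Klf4L. Itgb4, the integrin chain of hemidesmosomes, had its lowest value with EB-C5 (8.44) and its highest with OKN-HAMS (12.03), with 10.31 and 10.11 in the Klf4 constructs and 6.93 in lacZ. Epb41l4b lay above lacZ by 1.16 with STEMCCA and by 3.65 with OSKM. Prss35, a secreted serine protease-like protein, read from 8.42 with OKMS to 10.54 with OKN-HAMS against 6.98. Limma gave adjusted p-values of 0.638 for Krt8, 0.325 for Itgb4, 0.352 for Epb41l4b and 0.228 for Prss35. Every array lay at least 2-fold above lacZ for each of them.

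Some higher genes were at their highest with Klf4 alone. Lumican (Lum), a collagen-binding proteoglycan of fibroblasts, read 9.49 and 9.72 with Klf4S and Klf4L and 7.58 to 9.46 with the cassettes, against 6.54 in lacZ. The laminin chain Lama4 read 10.85 and 10.89 with the Klf4 constructs and 9.60 to 10.70 with the cassettes, against 8.50. Neither difference between cassettes and Klf4 alone passed limma (adjusted p = 0.2 and 0.086). The remaining higher genes were Mfsd6, Sbspon, Tmem229b, Kdm7a, Fgfbp1, Fndc1, Ccdc141 and Igfbp2, with mean differences from 1.37 for Igfbp2 to 2.97 for Sbspon. Lama4, Kdm7a, Fndc1, Ccdc141 and Igfbp2 are outside the naming rule and were chosen to complete the 25.

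**Figure D1:**
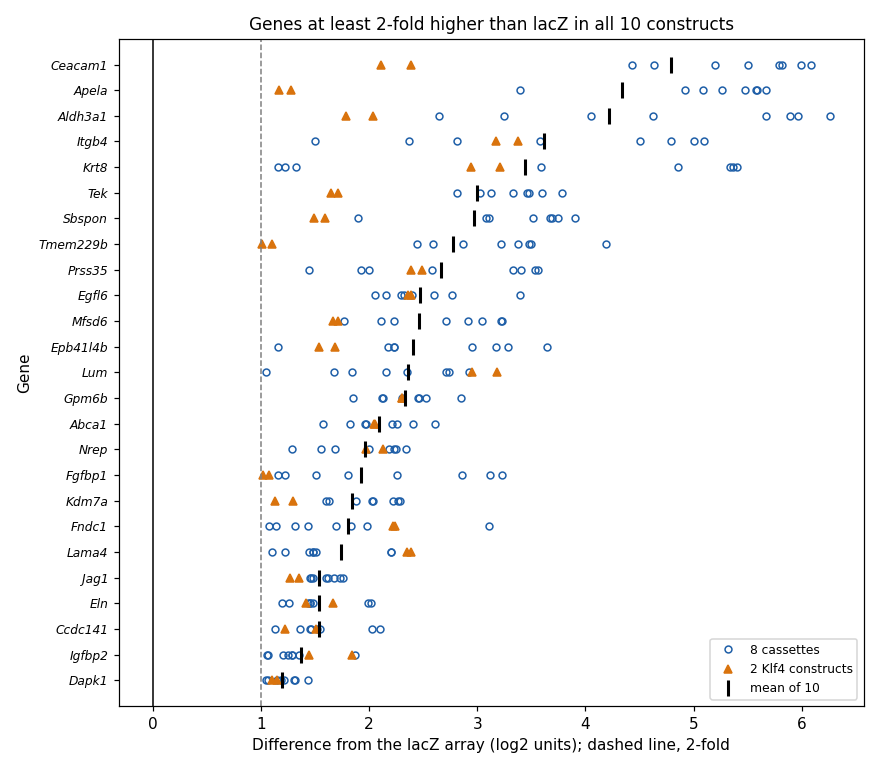
Differences from the lacZ array (horizontal axis, log2 units) of the 25 genes at least 2-fold higher with all 10 constructs, with circles for the 8 cassettes, triangles for the 2 Klf4 constructs and a bar at the mean of 10. Ceacam1 and Apela have the largest means (4.80 and 4.34) with the Klf4 triangles far to the left of the cassettes, while the points of Dapk1 and Jag1 lie close together.

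The genes lower than lacZ were more even across constructs. Their median SD over the 10 constructs was 0.34, against 0.63 for the higher genes and 0.17 for all genes. Hsd3b6, a steroid dehydrogenase and isomerase, read 5.59 at the lowest, 5.65 at the median and 5.99 at the highest construct, against 9.19 in lacZ. All 10 constructs lay in the background range, with Klf4S the highest. Hsd3b6 fell, with a difference of -3.50 ± 0.13 that is a lower bound in size (limma adjusted p = 1.05e-06), the smallest p of the fit. It belongs to a family of similar genes, and signal shared with a paralog was not separated.

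Contractile and cytoskeletal genes formed the first group on the lower side. Kcnmb1, the beta subunit of the calcium-activated potassium channel of smooth muscle, read 6.23, 6.56 and 6.90 at the lowest, median and highest construct against 9.25. Klf4S was nearest to lacZ, still far below it, and Kcnmb1 fell by 2.73 ± 0.20 (limma adjusted p = 0.000324). Ankrd1, the YAP target whose promoter is printed above, read 7.08, 7.57 and 7.89 against 10.23 and fell by 2.73 ± 0.29 (limma adjusted p = 0.00283). Klf4L stood within the cassette range and Klf4S just above it. Calponin (Cnn1), an actin-binding protein of smooth muscle, ranged more widely, from 8.84 with EB-C5 and 8.85 with OKN-HAMS to 11.17 with Klf4S, against 12.38, and limma did not call it (adjusted p = 0.516). Myocd, which encodes the smooth muscle coactivator myocardin of serum response factor, read 5.89 to 6.49 against 7.53 and fell by 1.25 ± 0.21 (limma adjusted p = 0.0315). Its call was kept in 7 of 10 fits without 1 construct, and it was named after its values were seen.

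Over the smooth muscle contractile list, 16 of 18 measured genes lay below lacZ with all 10 constructs (14.5% of all genes), 2 of them by 2-fold (Kcnmb1 and Cnn1, 0.301% of all genes). Limma called 1 (0.426% of all genes), with 12 at an unadjusted p under 0.05. The list's median difference was -0.90, and by array it ran from -1.37 with EB-C5 to -0.53 with Klf4L. Tagln, a marker of the list chosen after its values were seen, lay below lacZ with every construct, by differences from -2.59 to -0.62 (limma adjusted p = 0.619). Among 20 targets of YAP and serum response factor, 13 lay below lacZ with all 10 (14.5% of all genes), 2 by 2-fold (Ankrd1 and Dusp1, 0.301%) and 1 was called lower (0.426%), with a median of -0.73. The array medians of that list ran from -1.08 with OKMS to -0.42 with Klf4S.

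Interferon-induced genes formed the next group. Oasl1, an oligoadenylate synthetase-like protein, read 9.53 at the lowest, 9.91 at the median and 10.27 at the highest construct against 12.03 in lacZ. The 10 arrays lay close together with the 2 Klf4 constructs on top, and Oasl1 fell by 2.08 ± 0.24 (limma adjusted p = 0.00415). Cmpk2, a mitochondrial nucleotide kinase, read 8.28, 8.73 and 9.19 against 10.74 and fell by 2.00 ± 0.29 (limma adjusted p = 0.014). Rsad2 (viperin), an antiviral enzyme, read 8.71, 9.48 and 10.34 against 11.56 with STEMCCA nearest to lacZ, and its mean difference of -2.06 was not called (limma adjusted p = 0.257). Slfn9, a Schlafen family member named after its values were seen, read 7.06 to 7.87 against 9.10 and fell by 1.63 ± 0.20 (limma adjusted p = 0.00667). The Schlafen genes are similar in sequence, and shared signal was not separated.

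Among 26 measured interferon response genes, 19 lay below lacZ with all 10 constructs, against 14.5% of all genes. Of them, 3 did so by at least 2-fold (Oasl1, Cmpk2 and Rsad2, 0.301% of all genes). Limma called 2 lower (0.426% of all genes) and none higher (0.0552%). The median difference of the list was -0.99. It was -1.17 for the cassettes and -0.30 for Klf4 alone, and by array it ran from -1.51 with WTSI to -0.27 with Klf4L. The cassette STEMCCA, at -0.33, lay between Klf4S (-0.34) and Klf4L. Oasl1 and Cmpk2 lay far below lacZ with Klf4 alone too, where the list's median was smaller. Ifit1, chosen after its values were seen, read 11.91 and 12.06 with Klf4S and Klf4L against 12.19 in lacZ and as low as 10.44 with a cassette.

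Of the cytokine genes, Cxcl10, Il6 and Ccl2 lay at least 2-fold below lacZ with all 10 (0.301% of all genes). Cxcl10, a chemokine that attracts T cells, read 10.16, 11.43 and 12.13 at the lowest, median and highest construct against 13.35, with OKN-HAMS lowest and STEMCCA highest. Il6 read 5.18, 5.70 and 6.64 against 7.71, with most arrays in the background range and WTSI the highest. Ccl2, a monocyte chemokine, read 10.29, 10.67 and 11.23 against 12.23, with Klf4L and Klf4S nearest to lacZ. None of these 3 passed limma, with adjusted p-values of 0.29, 0.0946 and 0.0585. The NF-kappaB feedback inhibitors Tnfaip3 (7.03 to 7.78 against 8.69) and Nfkbia (8.98 to 9.69 against 10.54) fell by 1.26 ± 0.22 and 1.12 ± 0.20 (limma adjusted p = 0.0395 and 0.0475). Each kept its call in 2 of 10 fits without 1 construct. In the list of 26 chemokines and inflammatory cytokines, 14 lay below lacZ with all 10 (14.5% of all genes) and none above, with a median of -0.44.

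Signalling genes on the lower side included receptors, ligands and kinases. Rasgrp3, a Ras exchange factor, read 5.68, 6.44 and 6.77 at the lowest, median and highest construct against 9.25 and fell by 2.83 ± 0.31 (limma adjusted p = 0.00298). The orphan receptor Gpr149 read 6.15, 6.77 and 7.59 against 9.62 and fell by 2.78 ± 0.49 (limma adjusted p = 0.0418), a call kept in 4 of 10 fits without 1 construct. Cck, the precursor of the peptide hormone cholecystokinin, read 5.96, 6.52 and 6.74 against 8.61. Only EB-C5 read in the background range, and Cck fell by 2.18 ± 0.26 (limma adjusted p = 0.0057). Adcyap1r1, the receptor of the peptide PACAP, read 6.91, 7.14 and 7.34 against 8.52 and fell by 1.41 ± 0.13 (limma adjusted p = 0.00149). The serum- and glucocorticoid-induced kinase Sgk1 read 7.72, 8.54 and 9.04 against 10.67, and the MAP kinase phosphatase Dusp1 read 10.11, 11.33 and 11.50 against 12.67. Limma did not call either of these (adjusted p = 0.056 and 0.329).

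The apelin system appeared on both sides. Apln, which encodes the ligand apelin, read 7.78, 8.23 and 8.64 at the lowest, median and highest construct against 9.98 in lacZ and fell by 1.79 ± 0.32 (limma adjusted p = 0.0418). The call was kept in 4 of 10 fits without 1 construct. Apela, the other ligand of the same receptor, lay above lacZ with all 10, as given above. Apln was named after its values were seen.

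The remaining lower genes had varied roles. Hmga2, a chromatin protein of embryonic mesenchyme, read 10.92, 11.17 and 11.51 at the lowest, median and highest construct against 12.70 and fell by 1.54 ± 0.21 (limma adjusted p = 0.00992). The difference between cassettes and Klf4 alone was -0.03 ± 0.16 (limma adjusted p = 0.94). Coch, a secreted matrix protein, read 6.92, 7.44 and 7.98 against 10.02 and fell by 2.52 ± 0.37 (limma adjusted p = 0.0148). Lypd6, Nup62cl, Lce1h, Hspa4l and Neurl3 fell by 2.16, 2.10, 2.10, 1.41 and 1.15, with limma adjusted p-values of 0.00705, 0.00879, 0.00924, 0.0148 and 0.012. Nup62cl averaged 5.96 with the 10 constructs, in the background range, so its fall is treated as a lower bound in size. Lce1h is a cornified envelope gene with close relatives that may share its signal, and Hspa4l is a heat shock protein. Endothelial lipase (Lipg) read 7.55, 8.70 and 9.12 against 11.06, and the glycosyltransferase B3gnt5 read 6.17, 7.07 and 7.84 against 9.51. Limma called neither (adjusted p = 0.0653 and 0.096). The mevalonate kinase Mvk, of cholesterol synthesis, lay under 2-fold on some arrays (8.86 to 9.39 against 10.14) and fell by 1.09 ± 0.16 (limma adjusted p = 0.0148). In its list 8 of 21 genes lay below lacZ with all 10 (14.5% of all genes).

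**Figure D2:**
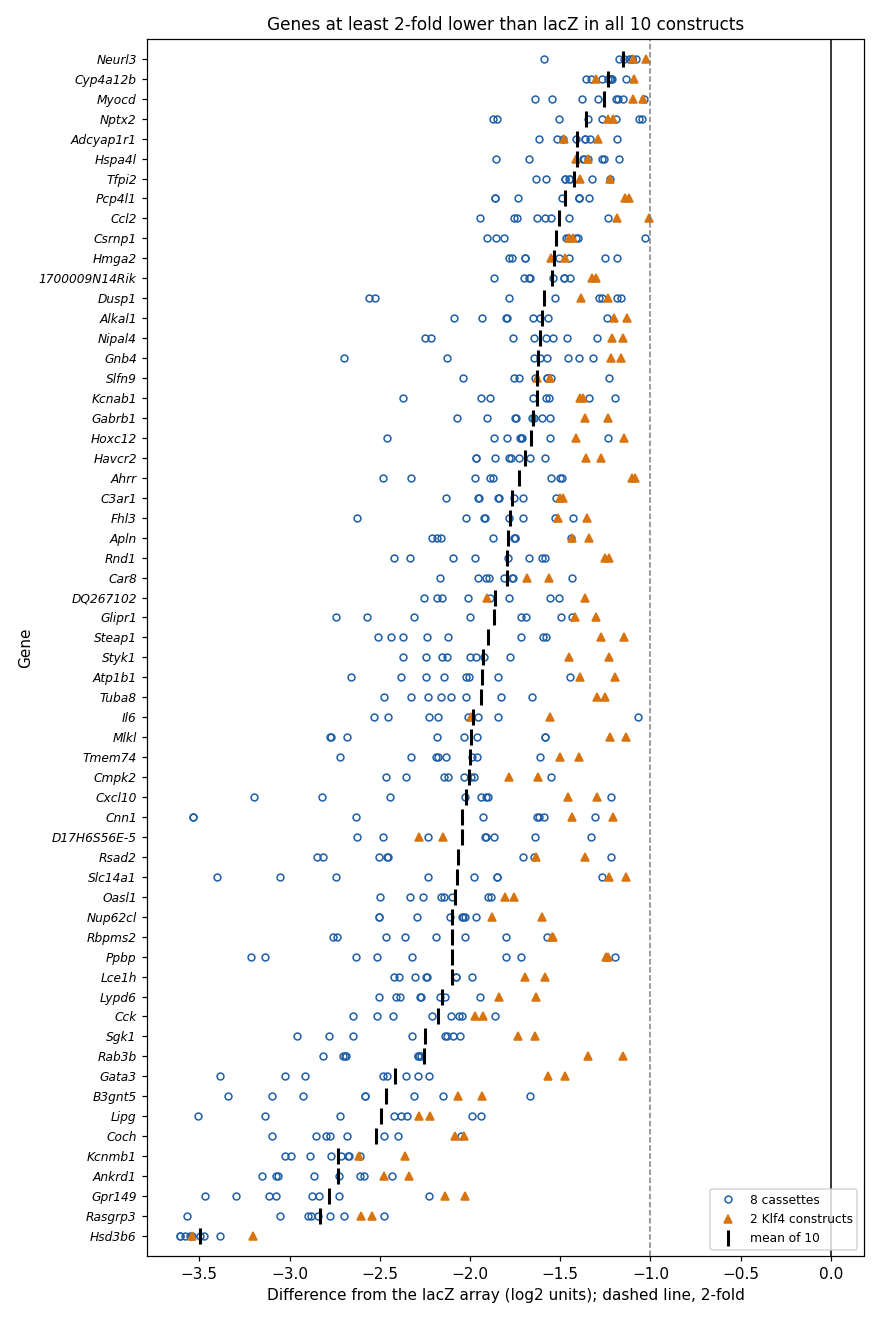
Differences from the lacZ array (horizontal axis, log2 units) of the 60 genes at least 2-fold lower with all 10 constructs, with circles for the 8 cassettes, triangles for the 2 Klf4 constructs and a bar at the mean of 10. Hsd3b6 lies farthest from lacZ (mean -3.50) with its points close together, and in most rows the Klf4 triangles are on the right, nearer to lacZ.

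**Figure D3:**
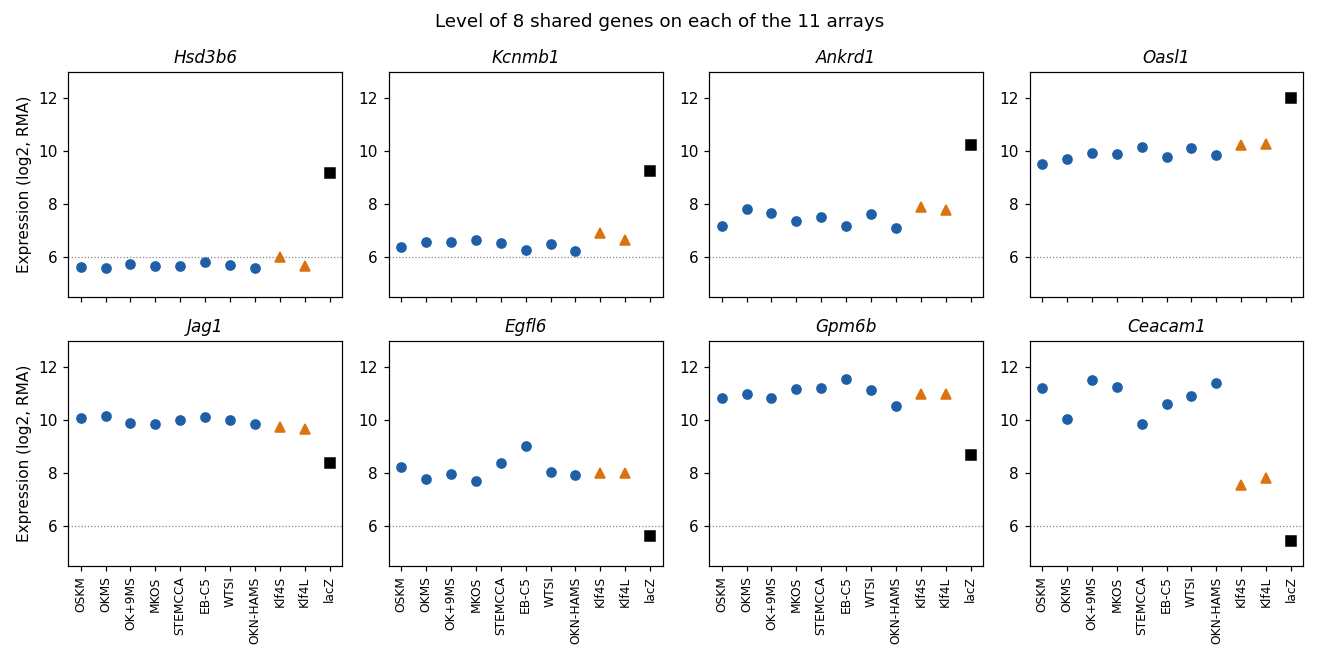
Log2 expression level (vertical axis) of 8 shared genes on each of the 11 arrays, with circles for cassettes, triangles for Klf4 constructs, a square for lacZ and a dotted line at level 6. Hsd3b6 lies at or under the line with all 10 constructs against 9.19 in lacZ, and Ceacam1 is at 7.53 and 7.81 with the Klf4 constructs and at 9.85 or more with the cassettes.

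Cassettes and Klf4 alone differed in how far they lay from lacZ. Of the 60 lower genes, 59 lay further from lacZ in the cassettes than in Klf4 alone, and so did 19 of the 25 higher genes, against 49.3% of all genes. D17H6S56E-5 was the exception among the lower genes. The median difference of the lower genes was -2.02 for the cassettes and -1.38 for Klf4 alone, and that of the higher genes 2.34 and 1.69. The members were chosen on these same differences, so the gap is a description. A Klf4 construct was the array nearest to lacZ for 40 of the 60 lower genes, Klf4S for 21 and Klf4L for 19. STEMCCA was nearest for 10 and WTSI for 5. Among the 25 higher genes Klf4S and Klf4L were nearest for 5 each, and STEMCCA and WTSI for 4 each.

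The same contrast can be tested on day 6 after the same sort. Limma called 2885 genes (14.5%) between cassettes and Klf4 alone, among them 14 of the 85 shared genes. Apela (3.90 ± 0.50), Ceacam1 (3.18 ± 0.42), Tmem229b (2.15 ± 0.38), Sbspon (1.78 ± 0.44), Tek (1.65 ± 0.22) and Kdm7a (0.78 ± 0.19) were higher in the cassettes, with limma adjusted p-values of 0.00321, 0.00367, 0.0104, 0.0286, 0.00367 and 0.0269. Rab3b (-1.26 ± 0.17), a vesicle GTPase, and Gata3 (-1.12 ± 0.28), a transcription factor, were lower in the cassettes (limma adjusted p = 0.00382 and 0.031), as were Tuba8, Styk1, Lce1h, Lypd6, Havcr2 and Gabrb1. The Klf4 group held 2 arrays that differed little from each other: the SD over genes of Klf4L minus Klf4S was 0.13, against 0.21 to 0.53 between pairs of cassettes. With either Klf4 array left out, limma kept 0 of the 14 calls, although 14 without Klf4S and 13 without Klf4L had an unadjusted p under 0.05, and the adjusted p of Apela became 0.0674 without Klf4S and 0.0655 without Klf4L. Kdm7a, Rab3b, Gata3, Tuba8, Styk1, Havcr2 and Gabrb1 were named after their values were seen.

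Each construct by itself had far more genes at 2-fold than the 85 held in common. OKN-HAMS had 814 higher and 1005 lower, OSKM 797 and 541, and OK+9MS 739 and 464. EB-C5 had 601 higher and 913 lower, and OKMS 675 and 822. STEMCCA had the fewest, 290 higher and 254 lower, followed on the higher side by Klf4S with 374 and 401, Klf4L with 396 and 395, and WTSI with 427 and 642. MKOS had 541 and 332. For the 60 lower genes the median difference ran from -2.33 with OKN-HAMS to -1.40 with Klf4S and Klf4L, and for the 25 higher genes from 1.68 with Klf4L to 2.60 with OSKM.

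Epithelial and early pluripotency lists lay furthest above lacZ in part of the cassettes, without common large steps. In the epithelial adhesion and identity list, 15 of 31 measured genes lay above lacZ with all 10 constructs, against 8.77% of all genes, yet 0 did so by 2-fold with all 10 and limma called 0, with 2 at an unadjusted p under 0.05. The list's median difference was 1.45 for the cassettes and 0.21 for Klf4 alone, and by array it ran from 0.20 with Klf4S to 2.80 with OKN-HAMS. The cassettes WTSI, STEMCCA and EB-C5 lay close to Klf4 alone, at 0.24, 0.33 and 0.38, and the others lay at 0.88 (OKMS) or more. E-cadherin (Cdh1), chosen after its values were seen, read 7.05 with Klf4S and 7.42 with Klf4L against 6.36 in lacZ and up to 11.46 with a cassette. Among 17 early pluripotency genes, 8 lay above lacZ with all 10 (8.77% of all genes), with medians of 1.26 for the cassettes and 0.06 for Klf4 alone. For keratinocyte and cornified layer genes the cassettes split: the list median was -0.04 to -0.01 with STEMCCA, EB-C5, WTSI and OKMS, and 1.13 to 1.90 with OKN-HAMS, OK+9MS, MKOS and OSKM, beside 1.79 with Klf4S and 1.94 with Klf4L. In that list 8 of 32 lay above lacZ with all 10 (8.77% of all genes). Limma called 0 members of either of these lists, with 1 in each at an unadjusted p under 0.05.

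Proliferation lists were not held in common. The median of 26 G2/M genes was -0.17 for the cassettes and -2.13 for Klf4 alone, and that of 25 replication genes 0.13 and -1.43. Of these, 3 and 2 lay below lacZ with all 10 (14.5% of all genes), none by 2-fold. Limma called 0 in either list, with 0 and 1 at an unadjusted p under 0.05. Targets of MYC and ribosome biogenesis had medians of 0.50 for the cassettes and -0.42 for Klf4 alone, with 0 of 25 above and 0 below lacZ with all 10. Fibroblast collagens and matrix genes had medians of -0.08 for the cassettes and 0.66 for Klf4 alone, with Lum the single member at 2-fold (0.426% of all genes). In the Notch and Wnt list Jag1 was the single call among 24 genes (0.481% of all genes), and 3 lay above lacZ with all 10 (8.77% of all genes).

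**Figure D4:**
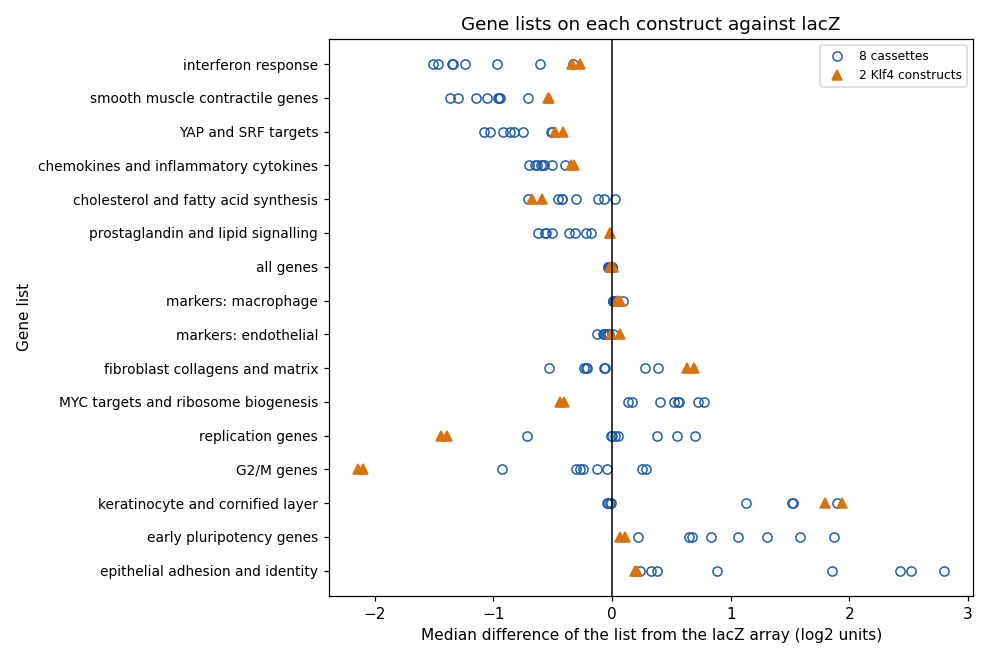
Median difference of each gene list from the lacZ array (horizontal axis, log2 units), with circles for the 8 cassettes and triangles for the 2 Klf4 constructs. The interferon, smooth muscle, YAP and chemokine lists lie below 0 on all 10 arrays, the median over all genes lies near 0, and the G2/M list is near -2.13 in the 2 Klf4 constructs alone.

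The populations carried fibroblast markers throughout. Vim read 13.38 to 13.76 with the constructs and 13.66 in lacZ, and the mean level of 12 fibroblast markers was 10.92 in lacZ, 10.77 to 11.70 with the cassettes and 12.04 to 12.05 with Klf4 alone. Macrophage markers were dim in lacZ, where 10 of 21 read under 6 and the median level was 6.13. Their mean level was 6.18 in lacZ, 6.22 to 6.5 with the cassettes and 6.25 to 6.29 with Klf4 alone, with Ptprc at 5.75 and Adgre1 at 5.37 in lacZ. Laptm5 was an exception, at 6.87 with Klf4L and up to 10.92 with a cassette against 6.85, and the part of such cells in any result was not tested. Of 14 endothelial markers Tek was the single one at 2-fold with all 10 (0.426% of all genes). The defining endothelial markers Pecam1 (6.16 to 6.59 against 6.24) and Cdh5 (6.39 to 6.57 against 6.52) stayed near their lacZ level. Medians of the muscle, neural, cartilage and bone, and adipocyte marker lists lay between -0.11 and 0.12. The mean level of neural markers was 7.46 in lacZ, 7.68 to 8.62 with the cassettes and 7.51 to 7.54 with Klf4 alone. Of the 10 neural markers measured, 0 lay above lacZ with all 10 constructs. Fewer cells of a type and less RNA per cell cannot be told apart in such pools.

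The loci of miRNAs gave 3 lower calls among 300 tested, against 0.426% of all genes, and they are named here after their values were seen. Mir199a-1 read 7.42 to 7.72 with the constructs against 8.64 in lacZ and fell by 1.05 ± 0.10 (limma adjusted p = 0.00155). Mir199b read 5.59 to 5.77 against 6.55, in the background range with every construct, and fell by at least 0.85 ± 0.06 (limma adjusted p = 0.000326). Both kept their calls in all fits without 1 construct. Mir30a, at 5.74 to 5.91 against 6.25 (limma adjusted p = 0.044), kept its call in 0 of 10. A probe set at a hairpin does not measure the mature miRNA. The loci Mir199a-1 and Mir199b encode 3p arms of the same sequence, printed with their seed (bases 2 to 8) in capitals, as RefSeq gives them.
mmu-miR-199a-3p: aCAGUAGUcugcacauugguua
mmu-miR-199b-3p: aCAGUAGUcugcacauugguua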

How the data were processed

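RNA of 11 MEF populations was hybridised to Affymetrix mouse gene arrays, 1 per construct. The authors deposited log2 signals per probe set, made by RMA (background correction, normalization between arrays and summarization) per the submitters' processing notes, which name no RMA version. RMA can understate large differences. Of 28856 probe sets, 21789 had 1 gene symbol, 1621 several and 5446 none, and those with 1 gave 19938 genes. For 999 genes with several probe sets the brightest was kept. Dim genes were not filtered out.

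The 10 constructs were set against lacZ with limma 3.58.1 in R 4.3.3 (lmFit, eBayes, 2 group means, 9 residual degrees of freedom) with Benjamini-Hochberg adjustment over all genes and calls at an adjusted p under 0.05. A 3-group fit tested cassettes against Klf4 alone. The fits were tested on simulated data. Genes at least 2-fold from lacZ in the same direction on all 10 arrays were counted without a test. Arrays of different constructs stand in for replicates, and their number limits the precision: p-values measure the spread between constructs and not between cultures.

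Genes were named by rule: per direction the 15 shared genes farthest from lacZ at their nearest array and the 10 largest calls, up to 4 called or shared members per list, the reprogramming factors, the 5 largest and 5 smallest differences between cassettes and Klf4 alone, and the neighbours of the threshold. Predicted genes, clone names and small RNAs were counted and not named by it. The members, the 31 gene and marker lists and the tests were chosen with earlier results of these data known. Alternatives were another probe set rule, a filter on dim genes, other folds, subsets of constructs, 3-group fits and leaving out each construct. Promoter and miRNA sequences are from RefSeq (GRCm38.p6). Genes of the lists that were not measured were not analysed here.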

Additional observations from a re-analysis of the deposited data

Results flagged for a closer look

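Among the 8 cassettes, 8 of the 58 named genes had 1 array far from the others, measured as its gap to the nearest cassette divided by the range of the cassettes. Chance flags about 1 in 20 genes of this kind if values are normally distributed. Many of the named genes were picked for large differences, and the rate over all genes was not computed, so the count is a description. Neurl3 stood lowest with OSKM (gap 0.816 of the range, 6.53 against 6.95 to 7.04), and Apela stood lowest with WTSI (0.671, 9.44 against 10.97 to 11.72). Apbb1ip was lowest with OKN-HAMS (0.598), Myc lowest with EB-C5 (0.596) and Sbspon lowest with STEMCCA (0.588). Sox2 (0.571) and Il6 (0.531) were highest with WTSI, and Mvk (0.56) highest with OKMS. For Il6 the WTSI array, at 6.64, was the cassette nearest to lacZ, and the other cassettes read under 6.

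Of the named genes at least 2-fold from lacZ with all 10 constructs, 7 differed between cassettes and Klf4 alone in the limma fit. That fit called 14.5% of all genes. Apela, Ceacam1, Tmem229b and Sbspon were named partly for the size of this same contrast, so the count is a description. Apela (3.90), Ceacam1 (3.18), Tmem229b (2.15), Sbspon (1.78) and Tek (1.65) lay higher in the cassettes on the log2 scale, and Lce1h (-0.58) and Lypd6 (-0.52) lay lower, with adjusted p-values from 0.00321 for Apela to 0.0297 for Lypd6. Both groups were sorted on day 6, so these differences do not involve the lacZ array. They rest on 2 Klf4 arrays, and none was called when either was left out.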

How the results depend on the processing

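No paired analysis was possible because the labels give no replicate numbers. The calls against lacZ (11 higher, 85 lower) became 5 and 10 among genes above the median level, which tests fewer genes and leaves out most dim ones, 41 and 143 with the 8 cassettes alone, 0 and 0 with the 2 Klf4 constructs alone (3206 and 3279 at an unadjusted limma p under 0.05, with 2 arrays against 1), 52 and 206 with 3 group means and the mean of 10, and 31 higher with 3 group means of equal weight. The genes at least 2-fold away with all 10 (25 and 60) became 33 lower above the median level, 82 and 102 with the cassettes alone, 342 and 355 with Klf4 alone, 69 and 217 at 1.5-fold, 6 and 14 at 3-fold, and 1748 and 2889 with no minimum size; fewer arrays or a lower fold let more genes pass by construction. Leaving out 1 construct gave 6 to 13 higher and 57 to 79 lower calls, 25 to 32 and 60 to 65 genes at 2-fold, and 61 of the 96 calls were kept in all 10 such fits. The lowest counts of higher calls came without Klf4S (6), Klf4L (7) and MKOS (7). Cassettes against Klf4 alone gave 1267 genes higher and 1618 lower, and 43 and 61 without Klf4S or 41 and 51 without Klf4L, fits with a single Klf4 array whose spread is assumed equal to the cassettes'. With Klf4 alone against lacZ the differences of Myc (-0.69) and Pou5f1 (-0.14) and the median of the reprogramming factors (-0.32) reversed, and the cause was not tested. Averaging probe sets, a floor of 6, quantile normalization and median centring kept the calls against lacZ and the genes at 2-fold within 1.5 times, as an intensity trend did for the calls. These were not run on cassettes against Klf4 alone. For single named genes 1028 of the repeats kept direction and call, 83 lost and 33 gained a call.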

Other observations

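A peptide ligand and its receptor were both called lower, and are named here after their values were seen. Adcyap1, which encodes PACAP, read 6.05 to 6.26 with the 10 constructs against 7.02 in lacZ and fell by 0.83 ± 0.08 (limma adjusted p = 0.00159), beside its receptor Adcyap1r1 in the report. The immediate early gene Npas4 read 5.76 to 6.20 against 6.94 and fell by 0.89 ± 0.13 (limma adjusted p = 0.012). Rgs5, a marker of pericytes, read 6.33 to 6.74 against 7.67 and fell by 1.10 ± 0.15 (limma adjusted p = 0.012). The complement receptor C3ar1 read 5.34 to 5.98 against 7.47, under 6 with all 10 constructs, and fell by at least 1.77 ± 0.22 (limma adjusted p = 0.00625). Adcyap1, Npas4, Rgs5 and C3ar1 were dim with all 10 constructs. In lacZ they read 6.94 to 7.67, near or under the median lacZ level of 7.58. Their calls hold in all 10 fits that left out 1 construct.

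Among the other gene lists, BMP, Id and TGF-beta genes had a median difference of -0.41. Of these, 7 of 23 lay below lacZ with all 10 constructs, against 14.5% of all genes. Prostaglandin and lipid signalling genes had a median of -0.17 with 7 of 16, against the same 14.5%. The medians of these lists were -0.44 and -0.29 for the cassettes, and -0.01 and -0.04 for Klf4 alone. The medians of the glycolysis, antioxidant, unfolded protein, p53, metalloproteinase, steroid enzyme and late pluripotency lists lay between -0.19 and 0.05. Limma called 0 members of the glycolysis list and 0 of the late pluripotency list, with 2 in each at an unadjusted p under 0.05.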
